A study of Mus musculus with 48 samples.

Results

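Macrophages that received the SE peptide together with IFN-γ were compared with macrophages that received the PE peptide together with IFN-γ. The libraries were chosen by their labels alone, as the count columns named with a letter, and number 6 of the 48 libraries of the series, 3 with SE + IFN-γ and 3 with PE + IFN-γ. All were made from RAW264.7, a single established mouse macrophage line that was given peptides of human sequence, as polyadenylated RNA from whole cultures. Both peptides were given at 100 µg/ml and IFN-γ at 5 ng/ml for 72 h, with the medium renewed after 48 h. SE and PE are synthetic peptides of equal length taken from the same stretch of the HLA-DR β chain. SE is read from an allele tied to a higher risk of rheumatoid arthritis, while PE holds the DERAA motif found in alleles tied to protection, and PE serves as the peptide control. The only labelled difference between the groups was therefore the peptide. IFN-γ alone, and SE and PE without IFN-γ, with 3 letter-named libraries in each group, place the values beside cells without a peptide or without the cytokine.

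IFN-γ signals through JAK kinases, and macrophages answer it with guanylate-binding proteins, MHC class II molecules, CXCR3-ligand chemokines and the inducible nitric oxide synthase. NF-κB, a transcription factor downstream of TNF and Toll-like receptors, acts on many chemokine, cytokine and feedback genes. Earlier work on the shared epitope, from which SE is named, describes it as a ligand of cell surface calreticulin.

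Depth was similar, with 22.1 to 25.5 M counts per library (M for mega) in these 6 libraries. The share of the 10 genes with the most counts was 8.73% to 8.86% with SE + IFN-γ and 8.20% to 8.56% with PE + IFN-γ. Of the 16 macrophage markers, 14 had at least 1661 counts in all 6 libraries, and Mertk and Mrc1 had at most 9 and 32. Of markers of other cell types, 6 of 10 of T and NK cells and 5 of 8 of B cells had 0 counts throughout. So did 3 of 9 of fibroblasts, 8 of 8 of epithelial cells and 4 of 11 of dendritic cells and neutrophils. The most counts were those of Csf3r, at 563 to 884, Lck, at 542 to 648, and Clec9a, at 86 to 248. The mean level of 27 IFN-γ target genes, as log2(CPM + 1), was 6.22 to 6.34 with SE + IFN-γ, 6.19 to 6.23 with PE + IFN-γ and 6.22 to 6.37 with IFN-γ alone. CPM are the counts of a gene per 1 M counts of its library. Without IFN-γ it was 2.50 to 2.62 with SE and 2.45 to 2.49 with PE, so the 6 libraries went with their IFN-γ label. A second set of libraries, named by HLA and a number, did so only in part. Its SE + IFN-γ libraries had 2.25 to 2.33, against their label, and its PE + IFN-γ libraries 6.33 to 6.402, with it. The HLA-named libraries enter no value below except where they are named.

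Macrophages with SE + IFN-γ differed broadly from those with PE + IFN-γ, and more genes were higher than lower. At an edgeR adjusted p under 0.05 and a change of over 1.5-fold, 966 of 12720 genes tested were called (7.59%), 668 of them higher (5.25%) and 298 lower (2.34%) with SE. Chemokines, immediate-early factors and listed NF-κB target genes were among the former, and genes of cholesterol and fatty acid synthesis, mitosis and MHC class II among the latter. Changes of over 2-fold were seen for 278 higher and 81 lower genes. Without the fold minimum 4373 genes passed the adjusted p, 2198 higher and 2175 lower. With the HLA-named libraries added to their labelled groups, edgeR called 0 genes, with 1271 at an unadjusted p under 0.05. The values of the groups did not overlap for 658 of the 668 higher and 293 of the 298 lower genes, where 47.6% of all genes tested had groups that did not overlap. The genes were called on these same values, so their separation adds no evidence for the calls. The paper calls the replicates biological, but nothing in the labels says that the 3 libraries of a group came from separate cultures. The p-values thus measure the spread between these libraries. In RNA from whole cultures, fewer cells that express a gene and less RNA of it per cell cannot be told apart.

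Large changes were ranked among called genes with a mean of 10 CPM or more over the 6 libraries and groups that did not overlap. Of these, Pgf, placental growth factor, a ligand of the VEGF receptor family, rose most (chr12:85166635-85177790, GRCm38, minus strand). Pgf had 20.9, 15.9 and 17.8 CPM in the libraries with SE + IFN-γ and 1.81, 1.6 and 2.1 CPM in those with PE + IFN-γ. The lowest SE value was thus far above the highest PE value. The rise was 9.91-fold, a log2 fold change of 3.31 (standard error 0.152, edgeR adjusted p 1.60e-10). Standard errors are on the log2 scale throughout. Ptpn14, a tyrosine phosphatase, had 22.5, 19.7 and 20.1 CPM against 2.98, 2.91 and 4.15 CPM, a 6.18-fold rise (standard error 0.13, edgeR adjusted p 2.59e-10). Acod1, whose enzyme makes itaconate in activated macrophages, had 412, 305 and 394 CPM with SE + IFN-γ and 75.9, 79.1 and 84.8 CPM with PE + IFN-γ. Its second SE library was the lowest of the 3 and still far above each PE library, and the log2 fold change was 2.21 (standard error 0.139, edgeR adjusted p 3.72e-09).

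The other genes with the largest rises had varied roles. Dmpk, a protein kinase, rose 4.69-fold from 4.91 ± 0.61 to 23 ± 3.21 CPM, where values with ± are the mean and SD of 3 libraries (n = 3) here and later. Dio2, which activates thyroid hormone, rose 3.52-fold, and Gda, guanine deaminase, 3.18-fold. Upp1, which splits uridine, and Rragd, a GTPase of amino acid sensing by mTORC1, rose 3.14- and 3.13-fold. Each of these 5 had an edgeR adjusted p of 5.17e-07 or less. Groups that did not overlap were a condition of the ranking and so are no separate result.

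**Figure D1:**
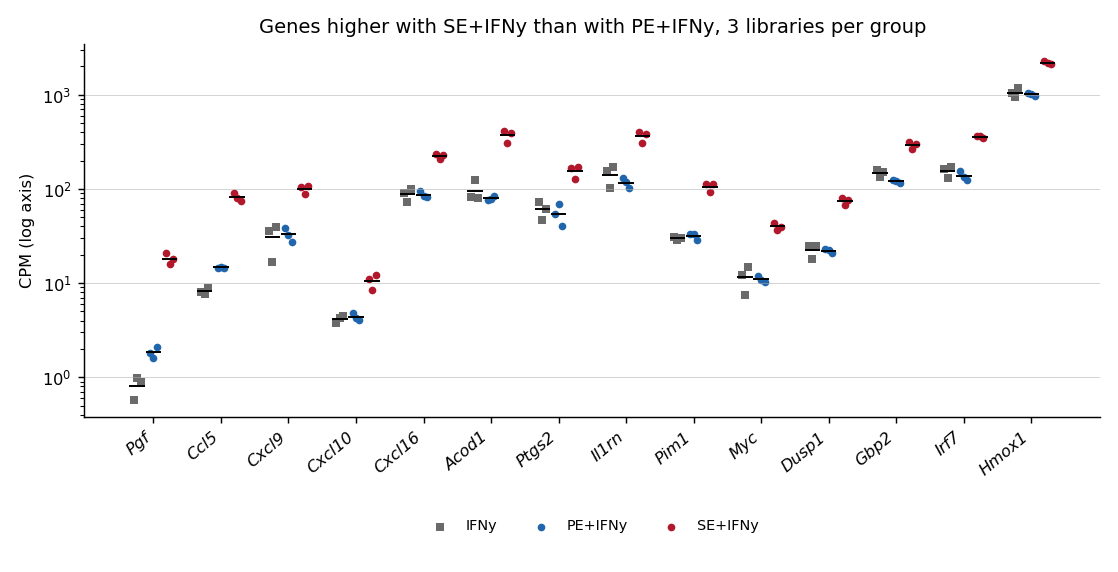
CPM on a log axis for 14 genes higher with SE + IFN-γ, with 1 point per library, 3 libraries per group and a black line at each mean. The red SE + IFN-γ points lie above the blue PE + IFN-γ points for each gene, from Pgf at 1.84 against 18.2 CPM to Hmox1 at 1012 against 2187 CPM on average, and the grey squares are IFN-γ alone.

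Chemokines, which draw leukocytes to inflamed tissue, had the largest share of called genes among the 26 lists with 10 or more genes tested. Of 21 CC and CXC chemokines listed, 16 were tested, 14 were higher with SE and 0 lower, with a median log2 fold change of 1.24, against 5.25% and a median of -0.01 over all genes tested. Values of SE lay above those of PE with no overlap for 16 of the 16, as they did for 22.7% of all genes tested. The 5 not tested had 3 or fewer counts in each of the 6 libraries. Ccl5, which attracts T cells and monocytes (chr11:83525778-83530518), had 89.7, 79.3 and 74.6 CPM with SE + IFN-γ and 14.5, 15 and 14.6 CPM with PE + IFN-γ. The PE libraries differed by less than 1 CPM, and the rise was 5.53-fold (standard error 0.0796, edgeR adjusted p 8.71e-13). Ccl3 was the most abundant of the 14, at 1099, 987 and 1106 against 567, 594 and 556 CPM, a 1.86-fold rise (standard error 0.0726, edgeR adjusted p 6.42e-08).

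The CXCR3 ligands, which recruit activated T cells, rose together. Cxcl9 (chr5:92321347-92328079, minus strand) had 106, 89.3 and 106 CPM against 38.9, 32.6 and 27.2 CPM, a 3.06-fold rise (standard error 0.197, edgeR adjusted p 7.04e-06). Cxcl10 (chr5:92346638-92348889, minus strand) had 10.9, 8.54 and 12.2 CPM against 4.79, 4.31 and 4.03 CPM, a 2.42-fold rise (standard error 0.186, edgeR adjusted p 4.39e-05). Cxcl11, the third ligand of this receptor, rose 3.3-fold from 3.95 ± 0.593 CPM. Cxcl16, the ligand of CXCR6, rose 2.57-fold to 224 ± 13.9 CPM, and Ccl22, a ligand of CCR4, 3.12-fold to 4.71 ± 0.656 CPM. The other 7 chemokines called had log2 fold changes of 0.91 to 1.58. The chemokines not called were Ccl2 and Ccl4, both ligands for monocytes, at log2 fold changes of 0.47 and 0.295 (95% interval 0.32 to 0.62 and 0.14 to 0.45). They passed the adjusted p (7.25e-05 and 0.00422, edgeR) but not the fold minimum. Ccl2, Ccl3 and Ccl4 were singled out after their values were seen.

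The promoters of Cxcl10 and Cxcl9 are shown for this pair of chemokines that rose. They are the 250 bases before the RefSeq start site (GRCm38.p6, minus strand, 5′ to 3′), at chr5:92348890-92349139 and chr5:92328080-92328329, with the NF-κB letters searched for, GGG followed by CC after any 5 bases, in capitals where they match on either strand.
Cxcl10: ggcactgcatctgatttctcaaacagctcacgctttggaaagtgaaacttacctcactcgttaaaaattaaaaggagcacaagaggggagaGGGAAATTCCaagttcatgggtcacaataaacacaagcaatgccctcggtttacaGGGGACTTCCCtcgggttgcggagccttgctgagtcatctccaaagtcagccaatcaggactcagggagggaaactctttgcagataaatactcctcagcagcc
Cxcl9: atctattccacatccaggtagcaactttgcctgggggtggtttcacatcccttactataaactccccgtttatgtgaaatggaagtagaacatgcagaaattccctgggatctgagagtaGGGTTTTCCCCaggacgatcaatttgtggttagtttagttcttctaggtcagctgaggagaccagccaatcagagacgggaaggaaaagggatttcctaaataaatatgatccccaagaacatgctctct
Cxcl10 held 3 matches, of which 2 overlapped by all but 1 base, and Cxcl9 held 2 such overlapping matches. These letters are common. They stood in 45.8% of all 32851 promoters of the table, in 61.0% of those of genes tested, in 61.7% of those of genes higher with SE and in 58.1% of those of genes lower. Of the 14 chemokines that rose, 10 were in the promoter table, and 5 of these held a match. A match describes letters and is no measure of binding.

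NF-κB itself was read from its subunits, inhibitors and feedback genes and from its other target genes. Of 25 subunits and feedback genes tested, 3 rose and 0 fell, where 5.25% and 2.34% did over all genes tested, with a median log2 fold change of 0.20. The 3 were Tnfaip3, the deubiquitinase A20 that ends the signal, Nfkbiz, a nuclear partner of the p50 subunit, and Traf1, an adaptor of TNF receptors. Tnfaip3 had 25.7, 19.1 and 24.5 CPM with SE + IFN-γ and 9.27, 11.1 and 8.48 CPM with PE + IFN-γ, a 2.4-fold rise (standard error 0.121, edgeR adjusted p 4.49e-07). Nfkbiz and Traf1 rose 1.93- and 1.87-fold. Nfkbia, the inhibitor IκBα, had 52.3, 52.9 and 59.2 against 41.7, 44.2 and 43.3 CPM, groups that did not overlap, but its log2 fold change of 0.35 (95% interval 0.19 to 0.500) was under the fold minimum. Relb, a subunit, likewise had a log2 fold change of 0.52 (95% interval 0.38 to 0.66).

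Of 28 other NF-κB target genes tested, 8 rose and 1 fell, where 5.25% and 2.34% did over all genes tested. Irf4, a transcription factor of alternatively activated macrophages, had 17.6, 13.6 and 15.2 CPM against 3.3, 4.72 and 4.11 CPM, a 3.81-fold rise (standard error 0.13, edgeR adjusted p 8.06e-09). Pim1, a serine kinase, had 112, 92.7 and 112 CPM against 33.4, 32.9 and 28.8 CPM, a 3.34-fold rise (standard error 0.0844, edgeR adjusted p 2.50e-10). Gadd45b, a stress response gene, rose 3.08-fold to 113 ± 11.2 CPM. Of the 8 rises the lowest had a log2 fold change of 0.87. Ptgs2, the inducible cyclooxygenase, had 168, 129 and 169 CPM against 53.6, 68.6 and 40.2 CPM, and its PE libraries were the more scattered of the groups. The rise was 2.87-fold (standard error 0.167, edgeR adjusted p 2.17e-06). Cdsn, corneodesmosin, was the gene of the list that fell, from 107 ± 11.9 to 58.6 ± 7.32 CPM (log2 fold change -0.87).

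Immediate-early factors, transcription factors and phosphatases that cells make soon after a signal, were called higher only. Of 24 tested, 9 rose and 0 fell, against 5.25% and 2.34% over all genes tested, with a median log2 fold change of 0.24. Myc had 43.3, 37.1 and 39.9 CPM with SE + IFN-γ and 12, 10.9 and 10.3 CPM with PE + IFN-γ, a 3.62-fold rise (standard error 0.15, edgeR adjusted p 6.25e-08). Dusp1, a phosphatase that switches off MAP kinases, had 80.8, 67.1 and 76.6 CPM against 23.2, 22.4 and 21 CPM and rose 3.37-fold (standard error 0.103, edgeR adjusted p 2.18e-09). The SE libraries of both genes lay far above their PE libraries. Maff, a small Maf factor, rose 2.99-fold, and Egr1, a zinc finger factor, 2.51-fold. The other 5, among them further MAP kinase phosphatases, had log2 fold changes of 0.69 to 1.32. Without PE + IFN-γ replicate 3, 1 gene of the list fell.

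Among cytokines and their antagonists, 5 of 17 tested rose and 1 fell, where 5.25% and 2.34% did over all genes tested. Il1rn, the antagonist of the IL-1 receptor, was abundant, at 398, 310.4 and 383 CPM with SE + IFN-γ and 129.7, 118 and 103 CPM with PE + IFN-γ. It rose 3.12-fold (standard error 0.139, edgeR adjusted p 1.03e-07). Il1a and Il1b, the agonists at the same receptor, were near the limit of detection, with 25, 16 and 28 against 7, 12 and 7 counts for Il1a and 32, 16 and 38 against 12, 4 and 6 counts for Il1b. Both were called (edgeR adjusted p 0.00597 and 0.00471), but neither was called without replicate 3, nor was Il1a without replicate 1. Csf3, the growth factor of granulocytes, was as low, with 57, 36 and 33 counts against 12, 5 and 6 counts (standard error 0.362, edgeR adjusted p 7.00e-05). Il23a, a subunit of IL-23, fell from 3.66, 4.39 and 3.47 CPM with PE + IFN-γ to 2.38, 2.19 and 1.57 CPM with SE + IFN-γ (log2 fold change -0.91, edgeR adjusted p 0.00267). Without replicate 3 the count of this list was 3 rises.

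In the TNF superfamily and its receptors 2 of 16 genes tested rose and 1 fell, where 5.25% rose and 2.34% fell over all genes tested. Tnfrsf9, the costimulatory receptor 4-1BB, rose 3.54-fold, from 3.3, 2.91 and 3.47 to 11.6, 11 and 11.7 CPM (standard error 0.164, edgeR adjusted p 2.16e-07). Its ligand Tnfsf9 went the other way, from 95.7, 92.8 and 98.9 to 59, 63.4 and 63.9 CPM (log2 fold change -0.63, edgeR adjusted p 2.10e-07). Neither pair of groups overlapped. Tnfrsf26 rose 1.58-fold, a call lost without replicate 1 and with length and GC trends subtracted. Tnf had 89.4, 84.2 and 85.6 CPM against 66.2, 61.6 and 66.4 CPM, and its log2 fold change of 0.42 (95% interval 0.25 to 0.58, edgeR adjusted p 0.000417) was under the fold minimum. Without SE + IFN-γ replicate 2 the list had 4 rises. It had 0 falls without SE + IFN-γ replicate 1 and 2 without SE + IFN-γ replicate 3, PE + IFN-γ replicate 1 or PE + IFN-γ replicate 2. Of 26 pattern recognition receptors and adaptors tested, 2 rose and 0 fell, near the share over all genes tested, the β-glucan receptor Clec7a (1.7-fold) and the TLR adaptor Ticam1 (1.52-fold), and without replicate 2 there were 4 rises.

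**Figure D2:**
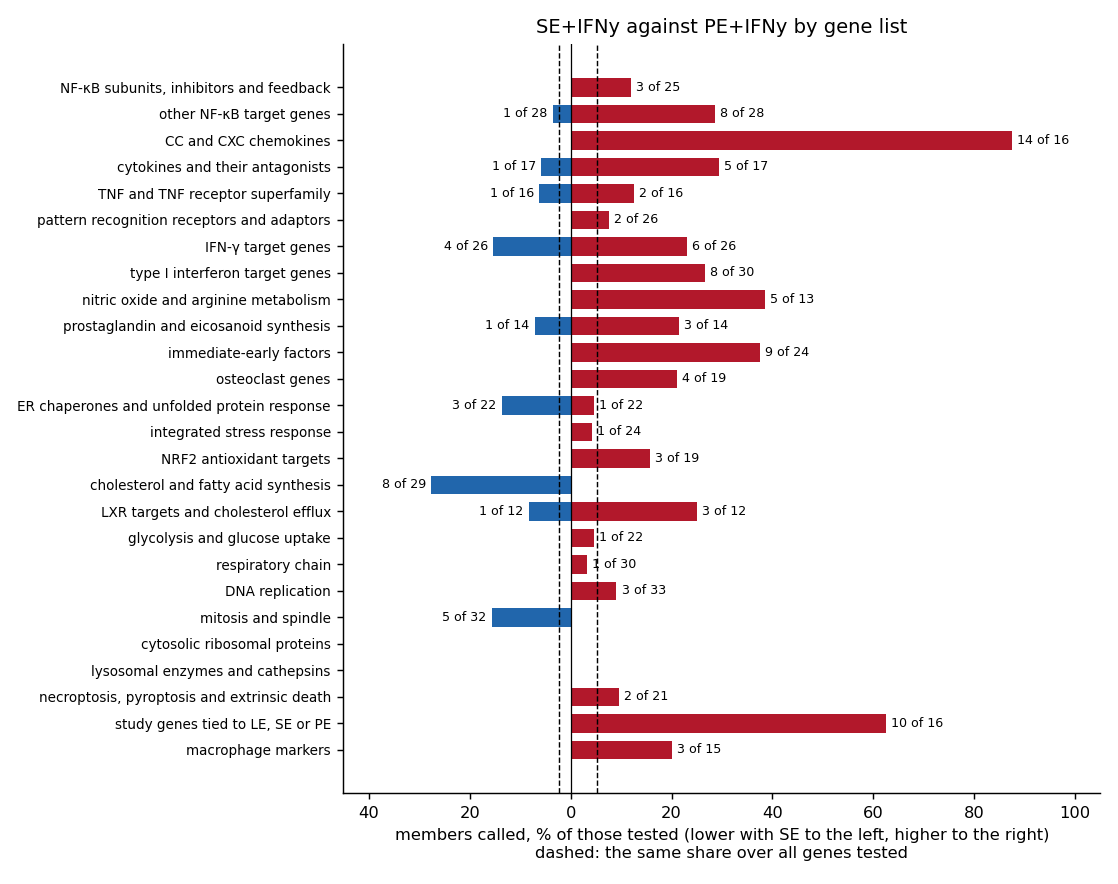
Share of the tested members of each of 26 gene lists that were called, higher with SE + IFN-γ to the right in red and lower to the left in blue, with the number called of the number tested beside each bar. Dashed lines give the shares over all genes tested, 5.25% higher and 2.34% lower. Chemokines reach furthest to the right with 14 of 16, and cholesterol and fatty acid synthesis furthest to the left with 8 of 29.

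The IFN-γ target genes divided between the directions. Of 26 tested, 6 rose and 4 fell with SE, against 5.25% and 2.34% over all genes tested. The median log2 fold change of 0.04 was -0.01 to 0.05 under other scalings, so that its sign depended on the scaling. At the adjusted p alone 8 were higher and 9 lower, against 2198 and 2175 of all 12720 genes tested. The summed level of the 27 genes listed was 9032 to 9667 CPM with SE + IFN-γ and 11692 to 12220 CPM with PE + IFN-γ. Abundant genes weigh most in this sum. The 6 called higher were the guanylate-binding proteins Gbp2, Gbp3 and Gbp4, which act against intracellular pathogens, the checkpoint ligand Cd274, Nos2 and Serpina3g. Gbp2 had 318, 264 and 302 CPM with SE + IFN-γ and 126, 121 and 116 CPM with PE + IFN-γ, a 2.44-fold rise (standard error 0.0755, edgeR adjusted p 2.18e-09). Gbp4 rose 1.82-fold, Gbp3 1.51-fold and Cd274 1.78-fold. Serpina3g, a serpin, rose 2.65-fold to 62 ± 6.41 CPM. The Gbp and Serpina3 families have near-identical members, and reads shared between copies were left out of the counts, so the levels of single members are uncertain. Gbp3 was singled out after its values were seen, and its call was lost without replicate 1 or replicate 3 of either group and with length and GC trends subtracted.

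Nos2, the inducible nitric oxide synthase, had 432, 376 and 427 CPM with SE + IFN-γ and 269, 238 and 228 CPM with PE + IFN-γ, a 1.68-fold rise (standard error 0.0798, edgeR adjusted p 1.72e-06). In a fit of all 24 letter-named libraries Nos2 was not called (edgeR adjusted p 0.0932). In all, 5 of 13 genes of nitric oxide and arginine metabolism rose and 0 fell, where 5.25% and 2.34% did over all genes tested. Ass1, which renews arginine, rose 1.82-fold from 73.5 ± 3.83 CPM, and Odc1, the first enzyme of polyamine synthesis, 2.15-fold to 408 ± 48.3 CPM. Arg2, an arginase, and Slc7a2, an arginine transporter, were at the edge of detection. Arg2 had 13, 20 and 11 counts with SE + IFN-γ and 2, 2 and 1 counts with PE + IFN-γ, and Slc7a2 had 20, 22 and 16 against 1, 4 and 2 counts. Both were called (edgeR adjusted p 0.00252 and 0.000376), but no fold is given from so few counts.

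The 4 IFN-γ targets that fell belong to MHC class II presentation and its control. H2-Ab1, the class II β chain (chr17:34257689-34269419), had 449.5, 499 and 505 CPM with SE + IFN-γ and 889, 825 and 779 CPM with PE + IFN-γ. Each SE library was under each PE library, and H2-Ab1 was 1.72-fold lower (log2 fold change -0.78, standard error 0.0972, edgeR adjusted p 8.95e-06). H2-Aa, the α chain, had 757, 787 and 859 against 1317, 1202 and 1187 CPM, 1.54-fold lower (standard error 0.102, edgeR adjusted p 0.000131). Ciita, the coactivator of class II genes, fell from 19.9 ± 1.13 to 13.1 ± 1.39 CPM, and Irf1, a transcription factor that acts on many of the others, from 159.7 ± 13.7 to 101 ± 6.22 CPM (log2 fold changes -0.601 and -0.66). H2-Ab1 was called whichever single library was left out, whereas the other 3 were close to the fold minimum. H2-Aa lost its call without SE + IFN-γ replicate 1 or PE + IFN-γ replicate 1, Ciita without SE + IFN-γ replicate 2 or PE + IFN-γ replicate 1, and Irf1 without PE + IFN-γ replicate 3.

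Type I interferon target genes were called higher only. Of 30 tested, 8 rose and 0 fell, against 5.25% and 2.34% over all genes tested, with a median log2 fold change of 0.24. Irf7, the factor that amplifies type I interferon, had 364, 362 and 352 CPM with SE + IFN-γ and 155, 135 and 124 CPM with PE + IFN-γ, a 2.6-fold rise (standard error 0.0886, edgeR adjusted p 4.77e-09). Rsad2, viperin, rose 2.48-fold to 43 ± 5.65 CPM, Mx2 2.21-fold to 3.77 ± 0.358 CPM and Oasl2 1.93-fold to 56 ± 3.39 CPM, all with antiviral roles. The other 4 of the list that rose had log2 fold changes of 0.65 to 0.88. Ifi44, of the same program, had overlapping groups, 106, 108 and 119 against 102, 113 and 95.9 CPM, and a log2 fold change of 0.098 (95% interval -0.03 to 0.23). The letters searched for the interferon-stimulated response element, GAAA followed by GAAA after any 2 bases on either strand, stood in 5.50% of promoters of genes higher with SE, in 2.03% of those of genes lower and in 2.98% of all promoters. Among death genes 2 of 21 rose, near the 5.25% of all genes tested, the nucleic acid sensor Zbp1, which the interferon list holds too (1.85-fold) and the pro-apoptotic Bcl2l11 (1.52-fold), and without SE + IFN-γ replicate 3 there was 1.

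Oxidative stress, eicosanoid and osteoclast genes were also compared, since SE is tied to arthritis. Over all genes tested, 5.25% rose and 2.34% fell. Hmox1, heme oxygenase, an NRF2 target, had 2289, 2165 and 2108 CPM with SE + IFN-γ and 1035, 1029 and 973 CPM with PE + IFN-γ, a 2.16-fold rise (standard error 0.0697, edgeR adjusted p 3.72e-09). Slc7a11, the cystine transporter, and Gclm, of glutathione synthesis, rose 1.79- and 1.74-fold, which makes 3 of 19 NRF2 targets tested, and 5 without replicate 3. The median of these 19 was 0.35. Slc7a11 was also the only 1 of 24 genes of the integrated stress response that was called. In eicosanoid synthesis 3 of 14 rose and 1 fell. Ptges, which makes prostaglandin E2 from the product of Ptgs2, rose 2.33-fold to 9.79 ± 1.23 CPM. Ptgis, the prostacyclin synthase, had 19, 15 and 28 counts with SE + IFN-γ and 1, 9 and 11 counts with PE + IFN-γ and was called at an edgeR adjusted p of 0.0177, and Alox5, of leukotriene synthesis, fell from 14.6 ± 1.35 to 9.47 ± 1.1 CPM. Without PE + IFN-γ replicate 1 or SE + IFN-γ replicate 3 Ptgis was not called, and without replicate 3 of either group Alox5 was not. Of 19 osteoclast genes tested 4 rose and 0 fell, beside the same 5.25% and 2.34% over all genes tested. Mmp9, a collagenase, rose 2.04-fold to 6.21 ± 0.406 CPM, the kinase Src 1.87-fold to 46.3 ± 4.91 CPM, and the fusion genes Ocstamp and Atp6v0d2 1.71- and 1.61-fold.

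Genes of cholesterol and fatty acid synthesis, most of them targets of the SREBP factors, were lower with SE. Of 29 tested, 8 fell and 0 rose, with a median log2 fold change of -0.26, against 2.34% lower among all genes tested. Scd2, a stearoyl-CoA desaturase (chr19:44293674-44306864), had 118, 133 and 145 CPM with SE + IFN-γ and 323, 346 and 324 CPM with PE + IFN-γ. It was 2.51-fold lower, a log2 fold change of -1.33 (standard error 0.0662, edgeR adjusted p 2.69e-10). Scd1, its paralog, fell from 49.8, 49.4 and 43.7 to 20.9, 24.7 and 25.8 CPM (log2 fold change -1.001). Fdps, which makes farnesyl diphosphate, had 10.1, 13.5 and 8.66 against 19.9, 22.1 and 23.4 CPM (log2 fold change -1.03, edgeR adjusted p 1.79e-05). Of the 29, 20 were lower at the adjusted p alone, as were 2175 of all 12720 genes tested. Leaving out any single library left 7 or 8 of the list called.

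Cholesterol efflux genes, targets of the LXR factors, held 3 rises and 1 fall among 12 tested, against 5.25% and 2.34% over all genes tested. Their median log2 fold change was -0.08. Cd36, a scavenger receptor that takes up oxidised lipoproteins, had 1070.3, 906 and 1084 CPM with SE + IFN-γ and 484, 541 and 421 CPM with PE + IFN-γ, a 2.12-fold rise (standard error 0.0828, edgeR adjusted p 3.28e-08). Nr1h3, the receptor LXRα, rose 1.79-fold. Abca1, the cholesterol exporter, had 9.05, 7.62 and 8.07 against 3.98, 6.07 and 2.66 CPM, a rise of 1.94-fold with scattered PE libraries (standard error 0.263, edgeR adjusted p 0.00901), which was not called without replicate 1 or without replicate 3. Apoe fell from 5.65, 4.88 and 5.65 to 3.61, 4.29 and 1.96 CPM (standard error 0.222, edgeR adjusted p 0.0171), a call lost without SE + IFN-γ replicate 3 or PE + IFN-γ replicate 3.

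Of 32 genes of mitosis and the spindle, 5 fell and 0 rose, against 2.34% lower among all genes tested, with a median log2 fold change of -0.29. Ccnb2, the cyclin B2 that drives entry into mitosis (chr9:70407692-70421547, minus strand), had 23, 28.3 and 33.4 CPM with SE + IFN-γ and 67.1, 63.6 and 56.8 CPM with PE + IFN-γ. It was 2.21-fold lower (log2 fold change -1.15, standard error 0.121, edgeR adjusted p 1.50e-06). Cdc20, the activator of the anaphase-promoting complex (chr4:118432901-118437352, minus strand), had 40.1, 45.8 and 51 against 96, 86.1 and 74.6 CPM (log2 fold change -0.91, standard error 0.139, edgeR adjusted p 7.48e-05). The kinases Plk1 and Aurka and the spindle gene Aspm fell too, with log2 fold changes of -0.89, -0.66 and -0.85, and Aurka, which was singled out after its values were seen, was not called without SE + IFN-γ replicate 1. Without SE + IFN-γ replicate 3, 8 of the list fell. With no library left out, 15 were lower at the adjusted p alone, as were 2175 of all 12720 genes tested. Of 33 genes of DNA replication, 3 rose and 0 fell, where 5.25% and 2.34% did over all genes tested, with a median of 0.29. The 3 were the S-phase cyclin Ccne2 (2.78-fold), the ligase Lig1 (1.79-fold) and the helicase subunit Mcm6 (1.53-fold). Without SE + IFN-γ replicate 2 there were 7 rises, and 5 without PE + IFN-γ replicate 1. At the adjusted p alone 21 of the 33 were higher and 0 lower, against 2198 and 2175 of all 12720 genes tested.

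Promoters of genes that act in mitosis often hold CCAAT boxes, and those of the 2 mitotic genes with the largest falls are shown with CCAAT on either strand in capitals. They are the 250 bases before the RefSeq start site (GRCm38.p6, minus strand, 5′ to 3′), at chr9:70421555-70421804 and chr4:118437344-118437593.
Ccnb2: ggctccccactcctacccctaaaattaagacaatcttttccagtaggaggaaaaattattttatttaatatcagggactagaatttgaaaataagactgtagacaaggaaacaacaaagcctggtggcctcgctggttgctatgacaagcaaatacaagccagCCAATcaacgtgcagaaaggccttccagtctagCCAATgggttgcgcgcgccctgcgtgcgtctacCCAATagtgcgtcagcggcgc
Cdc20: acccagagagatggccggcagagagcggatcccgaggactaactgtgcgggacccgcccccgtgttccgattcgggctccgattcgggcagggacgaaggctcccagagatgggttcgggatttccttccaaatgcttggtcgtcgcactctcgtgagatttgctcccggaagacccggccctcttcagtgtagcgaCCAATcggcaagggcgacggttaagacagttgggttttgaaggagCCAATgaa
Ccnb2 held 3 matches and Cdc20 held 2. All 5 mitotic genes that fell held at least 1, while CCAAT stood in 33.8% of all promoters, in 35.6% of those of genes tested, in 44.7% of those of genes lower with SE and in 33.5% of those of genes higher. Of the 298 genes that fell, 196 had a promoter in the table. The sterol element letters, TCAC followed by CCAC after any 1 base, stood in 0 of their 246 promoters and in 1.05% of all promoters, but only 2 of the 8 lipid synthesis genes that fell were in the table.

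**Figure D3:**
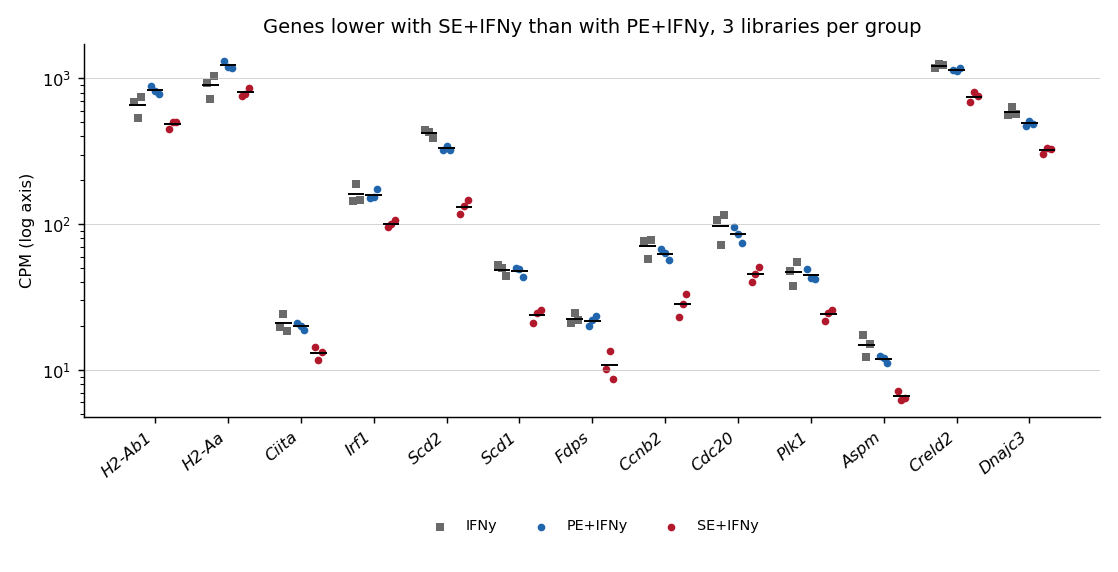
CPM on a log axis for 13 genes lower with SE + IFN-γ, drawn as for the higher genes: MHC class II and its regulators on the left, then lipid synthesis, mitosis and ER genes. The red SE + IFN-γ points lie below the blue PE + IFN-γ points for each gene, for Scd2 at a mean of 132 against 331 CPM and for Ccnb2 at 28.2 against 62.5 CPM.

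ER chaperones and genes of the unfolded protein response leaned lower with SE, mostly by less than the fold minimum. Of 22 tested, 3 fell and 1 rose, where 2.34% and 5.25% did over all genes tested. At the adjusted p alone 15 were lower, as were 2175 of all 12720 genes tested. The median log2 fold change was -0.43, the lowest of the lists with 10 or more genes tested. Creld2, an ER stress gene, had 687, 805 and 759 CPM with SE + IFN-γ and 1140.2, 1124 and 1184 CPM with PE + IFN-γ (log2 fold change -0.62, standard error 0.0638, edgeR adjusted p 1.16e-06). The cochaperones Dnajc3 and Sdf2l1 had log2 fold changes of -0.62 and -0.61. Hspa5, the chaperone BiP, had 10569, 11025 and 11134 against 14549.6, 14066 and 13282 CPM, and Ddit3, the stress factor CHOP, 1059.8, 1171 and 1072 against 1414, 1409.7 and 1432 CPM. Their log2 fold changes were -0.36 (95% interval -0.49 to -0.23) and -0.37 (95% interval -0.49 to -0.24). Ern1, the sensor IRE1α, was the gene that rose, 1.84-fold (standard error 0.085, edgeR adjusted p 4.93e-07). The count of falls depended on single libraries, with 0 without SE + IFN-γ replicate 1, 1 without PE + IFN-γ replicate 3 and 6 without SE + IFN-γ replicate 2. Fkbp11, an ER prolyl isomerase outside this list, fell further, from 77, 81.2 and 93.7 to 34, 45.3 and 41.2 CPM (standard error 0.111, edgeR adjusted p 1.30e-06).

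Calreticulin and its partner Lrp1, the receptor genes tied to the shared epitope by earlier work, were not called. Calr had 3806, 4197 and 3843 CPM with SE + IFN-γ and 5365, 5334 and 5722 CPM with PE + IFN-γ, a log2 fold change of -0.47 (95% interval -0.600 to -0.35), and Lrp1 had 0.36 (95% interval 0.18 to 0.54). Both passed the adjusted p (1.17e-05 and 0.00362, edgeR) in opposite directions.

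The remaining genes with the largest falls had no list in common. Bglap2, of the osteocalcin family (chr3:88377736-88378699), had 8.6, 10.2 and 7.17 CPM with SE + IFN-γ and 23.5, 33.5 and 38.5 CPM with PE + IFN-γ. It was 3.69-fold lower (standard error 0.209, edgeR adjusted p 2.48e-06), a level that is uncertain because near-identical copies lie beside it. Pi16, a secreted protein, had 22.7, 29.4 and 24.7 against 71.5, 70.3 and 83.4 CPM and was 2.94-fold lower (standard error 0.127, edgeR adjusted p 7.22e-08). Kbtbd11, Tmem51, Avil, an actin-binding protein, and 2610318N02Rik had log2 fold changes of -1.22, -1.095, -1.01 and -1.04.

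Genes of housekeeping programs were called at about the share of all genes tested or below it (5.25% higher and 2.34% lower). No gene was called among 34 cytosolic ribosomal proteins and none among 25 lysosomal enzymes and cathepsins. Of the ribosomal proteins 17 were lower at the adjusted p alone by less than 1.5-fold. At the adjusted p alone 2175 of all 12720 genes tested were lower. In glycolysis 1 of 22 rose, the glucose transporter Slc2a1 (1.5-fold, just over the fold minimum), and in the respiratory chain 1 of 30, Uqcrh of complex III (1.53-fold). Leaving out SE + IFN-γ replicate 3 ended the call of Slc2a1, and leaving out SE + IFN-γ replicate 1, PE + IFN-γ replicate 1 or PE + IFN-γ replicate 2 that of Uqcrh. Without SE + IFN-γ replicate 2 there were 2 rises in glycolysis and 1 among lysosomal genes. Of 15 macrophage markers tested, 3 rose and 0 fell. Adgre1, the surface protein F4/80, had 269, 228 and 251 CPM with SE + IFN-γ and 127, 136 and 110.4 CPM with PE + IFN-γ, a 2.004-fold rise (standard error 0.0685, edgeR adjusted p 8.29e-09), and the integrin Itgam and the scavenger receptor Msr1 rose 1.6- and 1.59-fold. The summed level of the 16 markers was 13670.2 to 13972 CPM with SE + IFN-γ and 12629 to 13057 CPM with PE + IFN-γ. Of 46 markers of other cell types 8 were tested. Summed levels were 22.3 to 27.3 CPM with SE + IFN-γ and 25.2 to 28.1 CPM with PE + IFN-γ for T and NK cells, nearly all of it Lck, and 44.3 to 47.4 against 30.0 to 34.5 CPM for dendritic cells and neutrophils, most of it Csf3r. Both B cell and fibroblast markers summed to under 2 CPM in each library. Pdgfra, Mpo and Clec9a were called, with 1.23 ± 0.546, 0.937 ± 0.307 and 8.14 ± 1.48 CPM with SE + IFN-γ against 0.343 ± 0.037, 0.415 ± 0.0629 and 4.51 ± 0.783 CPM with PE + IFN-γ (SD, n = 3). The calls of Mpo and Clec9a were lost without PE + IFN-γ replicate 3, that of Mpo also without SE + IFN-γ replicate 1 and that of Clec9a also without SE + IFN-γ replicate 3. The part of these markers in the results was not tested.

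The values of IFN-γ alone show on which side of that level each peptide lay. With SE + IFN-γ, 940 genes were called against IFN-γ alone (7.39% of 12720, 637 or 5.01% higher and 303 or 2.38% lower). With PE + IFN-γ, 80 were called (0.629%, 57 or 0.448% higher and 23 or 0.181% lower). These contrasts share libraries with the main one and are given side by side only. The log2 fold changes of PE + IFN-γ against IFN-γ had Spearman correlations of 0.38 with transcript GC and -0.27 with transcript length. For SE + IFN-γ against IFN-γ these were 0.064 and -0.043, and for SE + IFN-γ against PE + IFN-γ -0.18 and 0.15. With the trends subtracted, 63 genes were called for PE + IFN-γ against IFN-γ. The cause of the trends was not tested. Of the 668 genes higher with SE than with PE, 435 were called for SE and not for PE against IFN-γ, 12 were called higher for both, 15 were called lower for PE, and 206 were called for neither. Of the 298 lower genes these numbers were 158, 0, 9 and 131. The 668 genes had a median log2 fold change of 0.79 for SE and -0.12 for PE against IFN-γ alone, and the 298 had -0.66 and 0.13.

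Single genes stood differently against IFN-γ alone. Pim1 was 29.97 ± 1.12 CPM with IFN-γ alone and 31.7 ± 2.54 CPM with PE + IFN-γ (SD, n = 3). Dusp1 was 22.5 ± 3.9 CPM with IFN-γ alone and 22.2 ± 1.13 CPM with PE + IFN-γ. Among these groups the SE + IFN-γ libraries stood apart for both genes. The paper also names Pim1 among genes raised by a further peptide, LE, with IFN-γ. Ccl5 was 8.17 ± 0.641 CPM with IFN-γ alone and was called higher with PE too (log2 fold change 0.88), by less than with SE (3.34). Pgf and Ccl22 also rose with both peptides. Gda went below IFN-γ alone with PE (log2 fold change -0.61) and above it with SE (1.06). H2-Aa and H2-Ab1 were not called for either peptide against IFN-γ alone, with log2 fold changes under SE of -0.14 and -0.41, and under PE of 0.49 and 0.37. The count for PE rested on single libraries, with 18 without PE + IFN-γ replicate 3, 24 without IFN-γ replicate 1, 52 without PE + IFN-γ replicate 1, and 157, 135 and 129 without IFN-γ replicate 2, PE + IFN-γ replicate 2 and IFN-γ replicate 3.

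Without IFN-γ the peptides differed at few genes. SE against PE gave 4 called genes of 12420 tested (0.0322%), all higher with SE, while 684 had an unadjusted p under 0.05. The 4 were Lcn2, a siderophore-binding lipocalin, Procr, the protein C receptor, Tenm4, a teneurin, and Irf7. Lcn2 had 34.3, 41.9 and 50.4 CPM with SE and 17.8, 18.8 and 18.3 CPM with PE (log2 fold change 1.19, standard error 0.129, edgeR adjusted p 0.00204). Procr had 20.03, 23.1 and 28.4 against 12.8, 15 and 14.2 CPM and Tenm4 22.8, 30.5 and 28 against 15.3, 16.3 and 15.9 CPM (log2 fold changes 0.76 and 0.75). Irf7 had 125, 122 and 149.6 CPM with SE and 83.5, 80.8 and 86.2 CPM with PE (standard error 0.102, edgeR adjusted p 0.0448). The groups of these genes did not overlap. With IFN-γ, Procr rose again with SE (1.7-fold), Lcn2 had overlapping groups and a log2 fold change of 0.14 (95% interval -0.06 to 0.33), and Tenm4 had a log2 fold change of -0.58 (95% interval -0.89 to -0.27), just under the fold minimum. The count of 4 was 1 without PE replicate 1, 2 or 3 and without SE replicate 2 or 3.

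**Figure D4:**
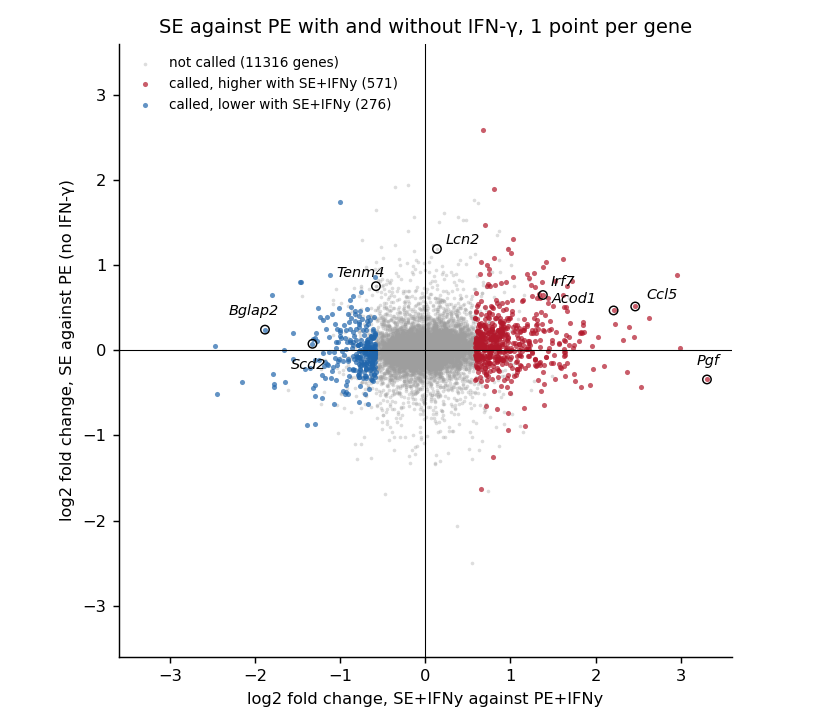
Log2 fold change of SE against PE with IFN-γ (horizontal) and without it (vertical) for the 12163 genes tested in both, on equal axes, with the 571 genes called higher in red and the 276 called lower in blue. The coloured genes spread sideways, with Pgf at 3.31 and -0.34 and Bglap2 at -1.88 and 0.24, whereas Lcn2 stands high at 0.14 and 1.19.

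Of the genes called with IFN-γ, 571 of the higher and 276 of the lower were also tested without it. Their median log2 fold changes without IFN-γ were 0.09 and -0.03, and 66.5% and 55.1% had the same sign there, where 50.1% of all genes tested had a value above 0. A missed threshold does not show that the peptides acted alike, and the intervals differ in width. One pair of peptides was compared, at 1 dose and time. For Pim1 the 95% interval of the log2 fold change without IFN-γ was -0.24 to 0.29 and for Il1rn -0.19 to 0.14, both far under the change with IFN-γ. For Acod1 it was -0.11 to 1.05, for Ccl5 -0.08 to 1.11 and for Myc -0.58 to 1.17. Cxcl9 and Serpina3g had too few counts without IFN-γ to be tested.

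The difference between the peptide effects with and without IFN-γ was tested as an interaction. It was called for 596 of 13096 genes (4.55%), 373 positive (2.85%) and 223 negative (1.7%). Among the genes called between SE and PE with IFN-γ, the interaction was called in the same direction for 285 of 668 higher and 131 of 296 lower genes, and these tests share the IFN-γ libraries. Pgf had an interaction of 3.64 on the log2 scale (edgeR adjusted p 0.000148), Irf4 2.34 (1.13e-05), Pim1 1.72 (9.41e-08) and Il1rn 1.67 (1.28e-06). Scd2 had -1.39 (9.22e-05) and Fdps -0.895 (0.0056). For Nos2 and Gbp2 it was not called, at -0.19 (95% interval -1.25 to 0.87) and 0.59 (95% interval -0.198 to 1.37). For Ptgs2 and Cxcl10 it was 0.78 and 0.37, with intervals of -0.19 to 1.75 and -0.83 to 1.57.

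The study ties 16 genes to its peptides or epitopes, several of them from these same libraries, so their direction is not independent evidence. Of the 16, 10 were higher with SE than with PE and 0 lower, where 5.25% and 2.34% of all genes tested were. The median log2 fold change of the 16 was 1.09. Dnase1l3, a nuclease linked to lupus, was among those not called, at 5.41, 4.6 and 5.45 against 6.51, 6.65 and 6.3 CPM (log2 fold change -0.33, 95% interval -0.602 to -0.06).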

How the data were processed

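RNA of RAW264.7 macrophages was sequenced in 48 libraries, of which the 6 compared here carry letter names and the labels SE + IFN-γ and PE + IFN-γ. Per the study's methods, RNA with a RIN of at least 7.5 was made into stranded mRNA libraries and read single-end. The labels name the kit without the word stranded, and neither the strand setting of the counting nor the aligner is given in the sources used here. The deposited values are raw counts per gene, which the authors obtained with featureCounts from uniquely aligned reads over Gencode M12 on GRCm38.p5, without normalization. The authors' own tests used DESeq2 1.16.1 in R 3.4.1, as the submitters' processing notes list.

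Here the counts were tested with edgeR 4.0.16 in R 4.3.3 (TMM scaling, filterByExpr, quasi-likelihood F test, two-sided) in a fit of the 12 letter-named IFN-γ libraries, with the 12 without IFN-γ in the fits that need them. Adjusted p-values are Benjamini-Hochberg values over all genes tested, and a gene was called at an adjusted p under 0.05 and over 1.5-fold. The same code was tested on simulated data. Levels are counts per 1 M counts of the library, and counts at these depths of 22.1 to 25.5 M leave genes of few counts imprecise. Alternatives were DESeq2 1.42.0, other scalings and filters, other sets of libraries, a replicate block, a correction for length and GC, and leaving out each library. Coordinates come from Gencode M21 (GRCm38), matched by name for 95.0% of genes, and promoters from RefSeq. Replicates of a group were checked for repeated libraries, and each pair differed by more than sampling noise, the closest by a chi-square of 3.89 per degree of freedom. The members and gene lists were chosen with earlier results of these data known. Named were the 12 called genes per direction with the largest change, at 10 CPM or more and with groups that did not overlap. Added were up to 4 called genes per direction of each of 32 lists, the defining genes of the lists and the genes the study names. The called genes with the largest changes without IFN-γ or in the interaction made it 110 in all. A further 5 were named after their values were seen. Some items are not reported here. Gene names that look like dates or that occur on several lines of the table were not named.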

Additional observations from a re-analysis of the deposited data

Results flagged for a closer look

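The effect of SE against PE differed with and without IFN-γ for 596 genes by the edgeR interaction test, and 67 of the named genes were among them. Values below are interactions on the log2 scale, the difference of SE minus PE with IFN-γ less that without, over 3 libraries in each of the 4 groups, all at an edgeR adjusted p under 0.05 and over 1.5-fold.

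Chemokines, cytokines and receptors with a larger difference under IFN-γ were Ccl5 1.94, Ccl22 1.96, Cxcl16 1.85, Ccl3 0.65, Csf3 2.63, Il1rn 1.67, Tnfrsf9 1.62, Clec7a 0.75, Ticam1 0.67 and Cd274 0.66. In NF-κB feedback and targets and the immediate-early factors they were Tnfaip3 1.08, Nfkbiz 0.97, Traf1 1.07, Irf4 2.34, Gadd45b 1.81, Pim1 1.72, Myc 1.58, Dusp1 1.71, Maff 1.78 and Egr1 1.69. In interferon, arginine and prostaglandin genes they were Irf7 0.74, Mx2 1.09, Arg2 2.98, Odc1 1.11, Ass1 0.85 and Ptges 1.14. Other genes with a positive interaction were Pgf 3.64, Ptpn14 2.26, Dmpk 1.92, Acod1 1.75, Dio2 1.59, Gda 1.82, Rragd 1.55, Src 0.702, Atp6v0d2 0.64, Ern1 0.63, Hmox1 0.89, Cd36 0.79, Nr1h3 1.05, Uqcrh 0.88, Lig1 0.92, Mcm6 0.73, Bcl2l11 0.75, Adgre1 1.01, Itgam 0.68 and Msr1 0.604.

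A negative interaction was found in lipid synthesis for Scd2 -1.39, Fdps -0.895 and Scd1 -1.16, in ER genes for Fkbp11 -1.36, Creld2 -0.84, Dnajc3 -0.85 and Sdf2l1 -0.67 and in mitosis for Ccnb2 -0.96 and Cdc20 -0.77. The others were Bglap2 -2.11, Pi16 -1.74, Kbtbd11 -0.92, Tmem51 -0.84, 2610318N02Rik -0.86, Avil -1.504, Cdsn -1.37, Il23a -1.32, Tnfsf9 -0.64, Irf1 -0.72, Lcn2 -1.04 and Tenm4 -1.32. Of these, Lcn2 and Tenm4 were called higher with SE without IFN-γ and not called with it. Arg2 rests on few counts. Groups held 3 libraries, too few to test for a single outlying library.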

How the results depend on the processing

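The count of genes called between SE + IFN-γ and PE + IFN-γ, 966, stayed within 1.5 times of that value with DESeq2 (878), other scalings, no filter on low counts, protein-coding genes alone, all 24 letter-named libraries and the correction for length and GC (877). A stricter filter of 5 CPM in 3 libraries gave 605, with fewer genes tested, and no fold minimum gave 4373. Leaving out libraries gave 706 to 1244. SE + IFN-γ against IFN-γ gave 572 under the stricter filter, 4243 without the fold minimum and 738 to 998 on leaving out libraries. PE + IFN-γ against IFN-γ, 80 as reported, gave 152 without a filter, 43 under the stricter one, 24 in a fit of all 24 libraries, 22 in a fit of its own groups, 1274 without the fold minimum and 4 to 250 on leaving out libraries. SE against PE without IFN-γ, 4 as reported, gave 10 with DESeq2, 2 with library size alone, 27 without a filter, 1 under the stricter one, 12 with all 24 libraries, 1 with its own groups and 0 to 4 on leaving out libraries, where the 0 of edgeR, without replicate 2, had 663 genes at an unadjusted p under 0.05. The interaction gave 1442 without the fold minimum and 324 to 664 on leaving out libraries, 324 without replicate 3 and 381 without replicate 1. The cause of these moves was not tested, except that the stricter filter tests fewer genes.

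Libraries of the same replicate number did not deviate together between SE + IFN-γ and PE + IFN-γ, with correlations of -0.016, -0.11 and -0.090, so the numbers were not taken as pairs. With a replicate block 968 genes were called between them and 9 between SE and PE without IFN-γ (9 also with the length and GC correction).

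In the HLA-named libraries the IFN-γ response went against the label for SE + IFN-γ, IFN-γ alone, PE and LE, the last at 6.74 to 6.84. It went with the label for PE + IFN-γ, LE + IFN-γ, SE and the libraries without peptide or IFN-γ. The HLA-named libraries gave other results. With both sets in 1 fit, edgeR called 0 genes in each of the 5 comparisons, where an unadjusted p under 0.05 was reached by 1271, 407, 555, 1366 and 1059 genes for SE + IFN-γ against PE + IFN-γ, SE + IFN-γ and PE + IFN-γ against IFN-γ, SE against PE and the interaction. The HLA-named libraries alone gave 2051, 10, 1890, 3503 and 1909 in that order. Of 115 named genes, 102 were called, and 76 of these were called in the same direction under each alternative on the letter-named libraries. None of the 102 changed direction there, and named genes not called were left out of this count. With length and GC trends subtracted Tnfrsf26, Ticam1, Sdf2l1, Mcm6, Bcl2l11, Msr1 and Gbp3 were not called, without replicate 1 neither was Atp6v0d2, and Slc2a1 and Nos2 were not in the fit of all 24 libraries. In both sets together the log2 fold change of SE + IFN-γ against PE + IFN-γ turned for Nfkbiz -0.71, Ptgs2 -0.59, Clec7a -0.93, Gbp4 -0.67, Cd274 -0.066, Ocstamp -0.021, Cd36 -0.27, Zbp1 -0.11, Clec9a -0.301 and Gbp3 -0.96, and for Kbtbd11 0.74 and Alox5 0.25. In the HLA-named libraries alone it turned for Pgf -0.19, Ccl5 -1.67, Dmpk -0.997, Acod1 -3.43, Myc -0.91, Dio2 -0.69, Dusp1 -0.74, Pim1 -0.58, Upp1 -5.33, Nfkbiz -1.94, Gadd45b -0.33, Ptgs2 -4.25, Cxcl11 -7.92, Cxcl9 -8.63, Il1b -2.08, Clec7a -2.49, Ticam1 -0.53, Serpina3g -9.65, Gbp2 -7.29, Gbp4 -11.25, Cd274 -2.15, Irf7 -0.74, Rsad2 -2.09, Oasl2 -2.52, Slc7a2 -3.41, Odc1 -0.081, Ass1 -2.96, Ptges -0.0025, Maff -0.62, Ocstamp -2.48, Ern1 -0.14, Slc7a11 -0.35, Hmox1 -0.76, Gclm -0.63, Cd36 -2.12, Nr1h3 -0.11, Slc2a1 -0.87, Zbp1 -5.28, Bcl2l11 -0.28, Adgre1 -0.93, Itgam -0.33, Msr1 -0.42, Clec9a -5.29, Tnf -0.85, Nos2 -5.13, Cxcl10 -3.82, Ifi44 -0.66, Lcn2 -3.04, Procr -1.93, Cxcl16 -0.87, Ccl2 -1.97, Ccl4 -1.01, Ccl3 -0.48 and Gbp3 -5.32, and for Kbtbd11 1.89, Tmem51 0.41, Fkbp11 0.38, 2610318N02Rik 0.26, Alox5 1.18 and Apoe 0.035. The cause was not tested. Depth limits genes such as Il1b, Csf3, Arg2, Slc7a2 and Ptgis, whose calls rest on few counts.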
